A study of Mus musculus with 6 samples.

Results

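Apolipoprotein E (Apoe) and 9 other genes of macrophage lipid handling were followed in RNA sequencing libraries from myeloid cells of CT26 tumours: Abca1, Abcg1, Lpl, Plin2, Soat1, Fabp4, Fabp5, Nr1h3 and Pparg. The genes were selected by name, and all 10 were found among the 17191 genes of the deposited tables. CT26, a mouse colorectal carcinoma line, was grown under the skin of female BALB/c mice that were 6 to 8 weeks old. When tumours measured 100 to 200 mm3, mice were assigned to vehicle (3 libraries) or to TP-18 (3 libraries, called treated below). TP-18 is a code name, and the compound was dosed orally at 50 mg/kg, once a day over 3 weeks. All 6 libraries therefore come from tumour-bearing animals, and no normal tissue or untreated group was part of the comparison. The labels differ on the cells taken. A flow sort for CD11b+F4/80+CD206+ macrophages is given in the design text, bead capture of CD11b+ cells in the treatment protocol, and the carcinoma line in the characteristics. Whether each library came from 1 mouse or from a pool is not stated, so the spread that p-values draw on is that between these libraries and may be partly technical.

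Macrophages take up lipoproteins and cell debris, split their lipids, store the surplus as cholesteryl ester and triglyceride in droplets, and return cholesterol to the circulation. Abca1 and Abcg1 pump cholesterol onto apolipoproteins, and Apoe, which macrophages secrete, takes it up as a carrier. Oxysterols that build up with cholesterol load activate the liver X receptor encoded by Nr1h3, which induces Abca1, Abcg1 and Apoe, while fatty acids activate the receptor encoded by Pparg.

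Total counts were 16371128 to 17597645 per library. Itgam, which encodes CD11b, lay between 803 and 1319 CPM (counts relative to library size, which was scaled between libraries by the TMM method), Mrc1, which encodes CD206, between 630 and 1452 CPM, and Adgre1, which encodes F4/80, between 99.9 and 295 CPM, and all 13 macrophage markers examined were detected in the table and tested. Markers of other cells were present as well. The summed level of 10 fibroblast and pericyte markers was 748 to 1214 CPM in vehicle and 1508 to 1880 CPM in treated libraries, without overlap, and that of 10 endothelial markers ranged from 37.9 to 207 CPM in vehicle and from 112 to 206 CPM in treated libraries. For scale, 11.6% of single genes tested were higher in CPM in every treated library than in every vehicle library. In bulk RNA of this kind, fewer cells of a type and less RNA per cell cannot be told apart.

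The comparison asked whether lipid handling transcripts differed between TP-18 and vehicle libraries. None of the 10 genes passed edgeR's quasi-likelihood test at an adjusted p of 0.05 while 14 of 12721 tested genes (0.110%) did, 0.0236% as higher and 0.0865% as lower. All 10 had passed the filter on low counts. At an unadjusted p under 0.05 the same test held 2 of the 10, Apoe (lower with TP-18) and Pparg (higher), against 16.3% of all tested genes, of which the higher made 7.56% and the lower 8.70% of those tested. DESeq2 called 1 of the 10, Apoe, as lower, against 4.45% of tested genes called in either direction (1.47% as higher and 2.98% as lower), and the limma fits called 0. Differences were negative for 7 genes and positive for 3, with a median log2 fold change of -0.23 against 0.02 over all tested genes, of which 47.4% were negative. The median of the 10 was not stable. It was 0.05 without vehicle 2, -0.05 with library totals as scaling, and 0.0176 and 0.0199 in the FPKM fits with pseudocounts 1 and 0.1. Library totals also raised the median of all tested genes, to 0.20.

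**Figure D1:**
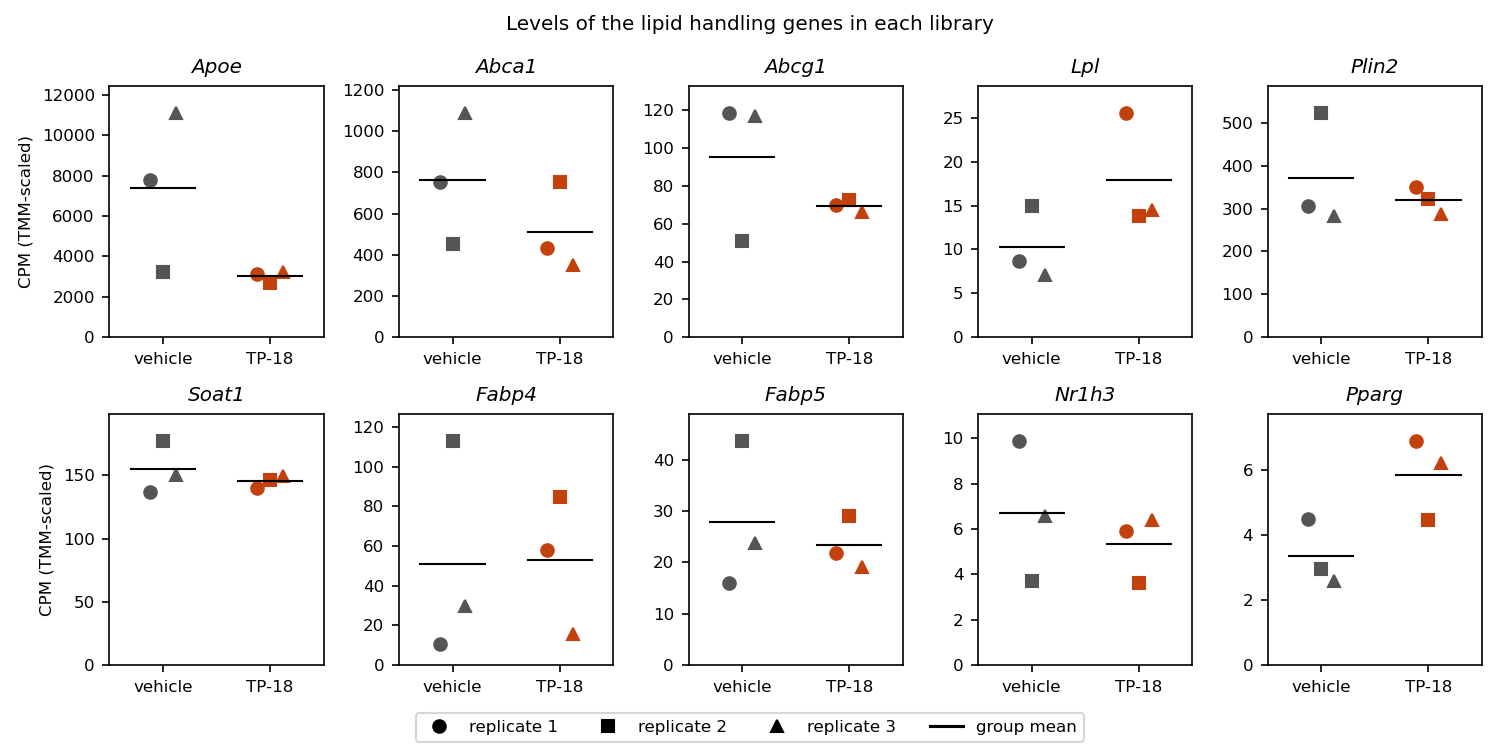
TMM-scaled CPM (linear axis from 0) of each of the 10 genes in the 3 vehicle (grey) and 3 TP-18 (orange) libraries; marker shape gives the replicate number and the line the group mean. Apoe spans 3248 to 11102 CPM in vehicle and 2692 to 3229 CPM in treated libraries. Vehicle 2 stands on the opposite side of the group mean from vehicle 1 and 3 for Apoe, Abcg1, Lpl, Plin2, Soat1, Fabp4 and Fabp5.

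Apoe was the most abundant of the 10 in every library. Its level was 7763, 3248 and 11102 CPM in vehicle 1, 2 and 3 and 3119, 2692 and 3229 CPM in treated 1, 2 and 3. The treated libraries were close to each other, and vehicle 2 lay beside them while vehicle 1 and 3 were far above. Means were 7371 ± 3942 CPM in vehicle and 3013 ± 284 CPM in treated libraries (SD, n = 3 each), a coefficient of variation of 53.5% against 9.41%. The log2 fold change was -1.29 ± 0.39 (SE), with a 95% interval of -2.19 to -0.39 and an edgeR adjusted p = 0.212, so that the difference did not pass over all genes. With DESeq2 the value was -1.30 with an adjusted p = 0.0147. Over the 15 alternative fits the adjusted p ran from 0.0147 to 0.548.

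The separation of the groups in Apoe rested on the scaling. TMM multiplied library totals by 0.962, 0.935 and 0.924 in vehicle 1, 2 and 3 and by 1.05, 1.07 and 1.07 in treated 1, 2 and 3. Against plain totals it thus lowered the CPM of every gene in treated libraries and raised it in vehicle libraries. In CPM every TP-18 library was below every vehicle library, as in 11.7% of tested genes (23.3% in either direction). In FPKM (fragments per kilobase of gene, scaled to plain library totals) vehicle 1, 2 and 3 had 3254, 1323 and 4466, treated 1, 2 and 3 had 1432, 1250 and 1504, and the groups overlapped, whereas 4.76% of tested genes were lower in every treated library on that scale. Apoe took 1.02% of all counts in vehicle 3 (Wilson 95% interval 1.02 to 1.03%, which covers counting error only), 0.747% in vehicle 1 and 0.304% in vehicle 2, against 0.287 to 0.345% in treated libraries. By FPKM it ranked 4th and 8th among all genes in vehicle 3 and 1, 69th in vehicle 2, and 38th to 45th in treated libraries. Without vehicle 2 the log2 fold change was -1.66 ± 0.18 with an edgeR adjusted p = 0.102, and without vehicle 3 it was -0.88 ± 0.34 with an adjusted p = 0.371.

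Macrophage markers varied along with Apoe among the vehicle libraries. The 13 markers summed to 11492, 6154 and 13536 CPM in vehicle 1, 2 and 3 and to 8088, 6217 and 9912 CPM in treated 1, 2 and 3, and the groups overlapped. Per unit of this sum, vehicle 1, 2 and 3 had 0.676, 0.528 and 0.820 of Apoe, and treated 1, 2 and 3 had 0.386, 0.433 and 0.326. The means were 0.675 ± 0.146 and 0.381 ± 0.0537 (SD, n = 3 each). The ratio was chosen after the levels were seen, and Apoe alone already separated the groups in CPM, so it is given as a description with no test. The sum is dominated by abundant markers such as Lyz2, a lysozyme (3634 ± 1409 and 2456 ± 754 CPM), and C1qa, a complement chain (1225 ± 659 and 984 ± 316 CPM). Log2 fold changes were negative for 10 of the 13 markers (median -0.27), and 0 passed edgeR (2 at an unadjusted p under 0.05). The part of macrophage content in the Apoe difference was not tested beyond these values.

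**Figure D2:**
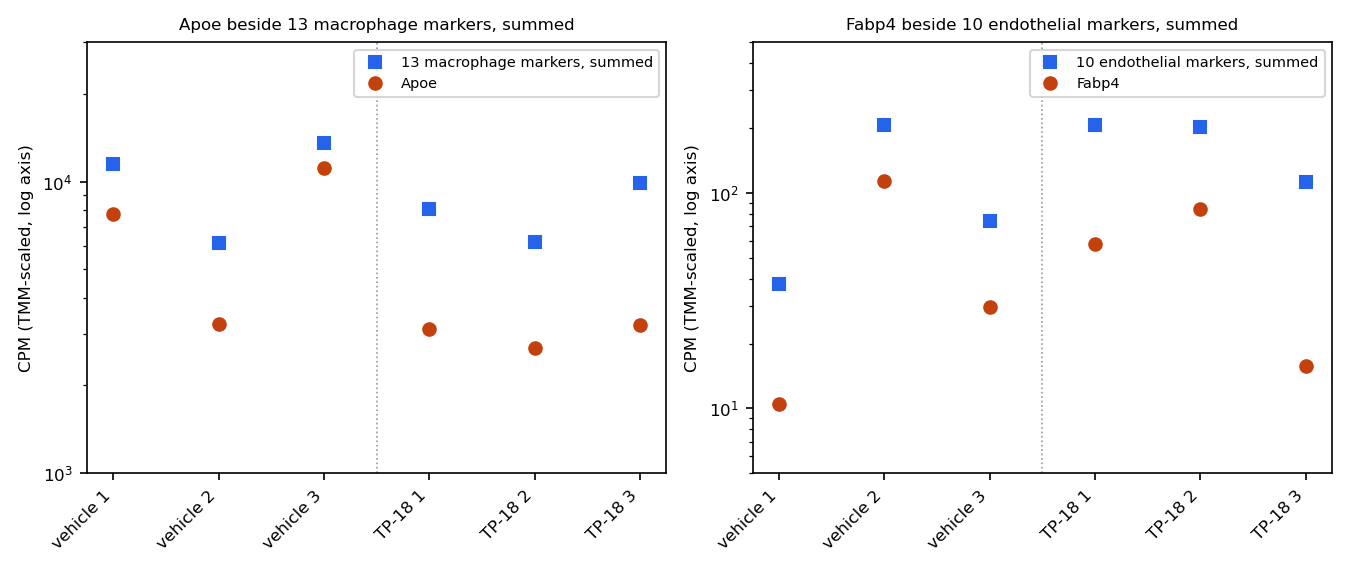
Left, Apoe and the sum of 13 macrophage markers, and right, Fabp4 and the sum of 10 endothelial markers, in each library (TMM-scaled CPM, log axis). Vehicle 2 is low in both left series (3248 and 6154 CPM) and high in both right series (113 and 207 CPM).

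The genes whose log2 CPM most resembled that of Apoe over the 6 libraries, among 9187 others with a mean of at least 10 CPM, were Dennd4a (Pearson r = 0.998), Nrf1 (0.994), St3gal1 (0.988), Zswim6 (0.986), Eif3a (0.985) and Trf (0.983). These values describe 6 points, of which 4 lie close together while vehicle 1 and 3 lie apart. Trf, which encodes the iron carrier transferrin, had 258, 111 and 508 CPM in vehicle 1, 2 and 3 and 87.8, 85.1 and 125 CPM in treated 1, 2 and 3. Like Apoe it was high in vehicle 1 and 3 only, and its groups overlapped. By the same measure Abcg1 (0.876), Abca1 (0.735) and Nr1h3 (0.666) followed Apoe in part, whereas Lpl (-0.849) ran against it.

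Among the apolipoprotein genes that neighbour Apoe in the genome, Apoc1 was near the floor of detection, at 0.944 to 1.59 CPM in vehicle and 0 to 1.68 CPM in treated libraries, and Apoc2 and Apoc4 were too low to be tested. The flanking gene Tomm40, a subunit of the mitochondrial import pore, had 84.3 ± 12.7 CPM in vehicle and 84.2 ± 12.4 CPM in treated libraries. These 4 genes were chosen after their values were seen. On GRCm38 Apoe (Entrez 11816) spans 19696109 to 19699188 on chromosome 7, minus strand, and no other annotated gene shares its exons. All 10 genes are annotated as protein-coding. Abca1 lies on chromosome 4 at 53030787 to 53159895 (minus strand) and Abcg1 on chromosome 17 at 31057675 to 31117988 (plus). Nr1h3 lies on chromosome 2 at 91184061 to 91202834 (minus), Pparg on chromosome 6 at 115360951 to 115490399 (plus) and Lpl on chromosome 8 at 68880491 to 68907448 (plus). Plin2 lies on chromosome 4 at 86648386 to 86670060 (minus) and Soat1 on chromosome 1 at 156424525 to 156474331 (minus). The carriers Fabp4, at 10204088 to 10208576 (minus), and Fabp5, at 10012548 to 10016607 (plus), are both on chromosome 3.

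The cholesterol exporters Abca1 and Abcg1 had lower means with TP-18 and overlapping groups. Abca1, which loads cholesterol onto lipid-poor apolipoproteins, was at 751, 452 and 1088 CPM in vehicle 1, 2 and 3. In treated 1, 2 and 3 it was at 432, 754 and 351 CPM. Treated 2 thus stood as high as vehicle 1, and vehicle 2 was close to treated 1. The log2 fold change was -0.58 ± 0.37 (SE; 95% interval -1.45 to 0.29; edgeR adjusted p = 0.477), and it was -0.96 without treated 2 and -0.24 without vehicle 3. Unlike Apoe, Abca1 varied as much within TP-18 as within vehicle libraries, with coefficients of variation of 41.6% and 41.7%, a contrast between the genes that was not tested.

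Abcg1, which moves cholesterol toward mature lipoprotein particles, was at 119, 50.8 and 117 CPM in vehicle 1, 2 and 3 and at 69.9, 72.5 and 66.3 CPM in treated 1, 2 and 3. The 3 treated libraries lay inside the vehicle range, between vehicle 2 below and the other two above. Their coefficient of variation was 4.49%, lower than that of all but 9.28% of tested genes, against 40.6% in vehicle libraries. Its log2 fold change was -0.46 ± 0.30 (95% interval -1.15 to 0.24; edgeR adjusted p = 0.478), and -0.78 without vehicle 2.

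The start of Abca1 carries a sequence of the kind that liver X receptors bind, and it is shown because Nr1h3, Abca1 and Apoe are measured side by side here. RefSeq windows on GRCm38.p6, each from 250 bases before to 50 bases after a transcription start, were found for 6 of the 10 genes (11 windows: Apoe, Abca1, Nr1h3, Plin2, Pparg and Soat1). They were searched on both strands for a direct repeat of the nuclear receptor motif with a 4-base spacer, that is GGTNA, then 5 bases of any kind, then GGTNA. Of the 11 windows 1 held it, that of Abca1, against 0.718% of all 32851 windows. The match lies 67 to 53 bases before the start, on the reverse strand, and is printed in capitals. The 250 bases before the start of Abca1 (chr4:53159896-53160145, minus strand) and before the most upstream start of Apoe (chr7:19699189-19699438, minus strand) read, 5′ to 3′:
Abca1: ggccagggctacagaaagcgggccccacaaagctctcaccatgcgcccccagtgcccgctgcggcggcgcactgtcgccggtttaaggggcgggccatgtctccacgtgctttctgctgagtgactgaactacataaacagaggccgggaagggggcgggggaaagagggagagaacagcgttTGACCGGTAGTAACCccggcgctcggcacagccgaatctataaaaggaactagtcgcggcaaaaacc
Apoe: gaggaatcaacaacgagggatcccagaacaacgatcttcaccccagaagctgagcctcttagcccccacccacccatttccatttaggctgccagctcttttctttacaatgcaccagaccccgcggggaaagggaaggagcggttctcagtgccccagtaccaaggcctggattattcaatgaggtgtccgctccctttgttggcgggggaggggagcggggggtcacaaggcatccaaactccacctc

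The same Abca1 window holds the E-box CACGTG 147 to 142 bases before the start, a motif found in 7.15% of windows and also in that of Plin2, and a TATAAA 29 to 24 bases before it (13.6% of windows). The repeat with a 1-base spacer, of the kind that PPAR receptors bind, that is GGTNA, then 2 bases of any kind, then GGTNA, was in 0 of the 11 windows and in 1.1% of all. A match is a description of letters in a window and no measure of binding, and elements farther from the start lie outside it.

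Nr1h3, which encodes a liver X receptor, was scarce, at 9.90, 3.71 and 6.55 CPM in vehicle 1, 2 and 3. In treated 1, 2 and 3 it was at 5.93, 3.64 and 6.39 CPM, within the vehicle range apart from treated 2 just below it. Both libraries numbered 2 were low. On the log2 scale the difference was -0.34 ± 0.40 (95% interval -1.26 to 0.58; edgeR adjusted p = 0.699) and changed sign without vehicle 1 (0.03). Counts behind these values were 59 to 161 reads per library. Exons of Nr1h3 share 34 bases, or 1.35% of their length, with Gm13783 on the same strand. Nr1h2, another liver X receptor gene, had a log2 fold change of -0.17 (edgeR adjusted p = 0.503). The level of Nr1h3 is therefore not that of these receptors together.

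Pparg, the receptor that drives fatty acid uptake and storage genes, was scarcer still by FPKM. It had 4.49, 2.96 and 2.58 CPM in vehicle 1, 2 and 3 and 6.90, 4.45 and 6.22 CPM in treated 1, 2 and 3. In CPM treated 2 fell just under vehicle 1, so the groups overlapped. In FPKM, at 1.28, 0.818 and 0.705 against 2.15, 1.40 and 1.97, every TP-18 library was above every vehicle library, as in 23.5% of tested genes on that scale (28.3% in either direction). Lpl was the other of the 10 genes with groups apart in FPKM. The log2 fold change was 0.81 ± 0.32 (95% interval 0.06 to 1.55), with an unadjusted p = 0.0372 and an edgeR adjusted p = 0.283. It was positive in all 15 alternative fits, from 0.56 to 1.06, and passed in none (smallest adjusted p = 0.166).

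**Figure D3:**
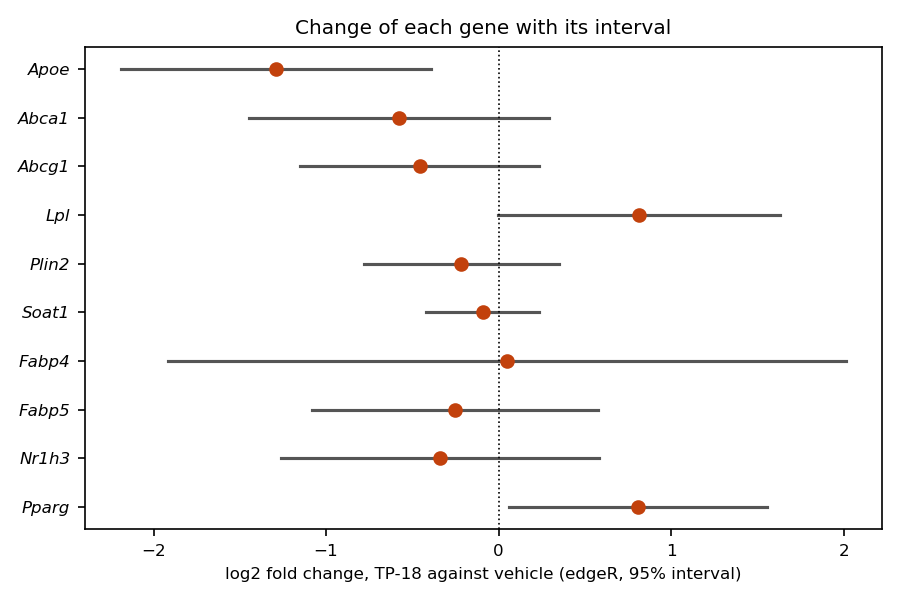
Log2 fold change of each gene, TP-18 against vehicle, from edgeR (points) with its 95% interval (lines); the dotted line marks no difference. The intervals of Apoe (-2.19 to -0.39) and Pparg (0.06 to 1.55) lie on 1 side of 0 before adjustment over all genes, and that of Fabp4 (-1.91 to 2.01) is the widest of the 10.

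Lpl, the secreted lipase that frees fatty acids from triglyceride-rich particles, had the same size of difference as Pparg. It was at 8.67, 14.9 and 7.08 CPM in vehicle 1, 2 and 3 and at 25.6, 13.8 and 14.5 CPM in treated 1, 2 and 3. Treated 1 stood above the rest, and vehicle 2 lay among the treated libraries. On the FPKM scale the smallest TP-18 value, 3.63, was above the largest vehicle value, 3.44. Its log2 fold change was 0.81 ± 0.35 (95% interval -0.01 to 1.63; edgeR adjusted p = 0.311), with 0.47 without treated 1 and 1.17 without vehicle 2.

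Pparg and Lpl are also genes of fat cells, and Lpl of stromal cells. The hormone and droplet genes that define adipocytes were near the floor: Adipoq had at most 0.818 CPM, Plin1 at most 0.315 CPM, and Lep was at 0 in 5 of 6 libraries. Of these 11 markers, 2 were abundant enough to test, Lipe and Car3. Both were positive (median log2 fold change 0.30) and neither passed. Lipe, the larger, had 7.75 ± 4.08 CPM in vehicle and 10.4 ± 2.00 CPM in treated libraries. Fibroblast and pericyte markers were higher in treated libraries, as given above. There the differences were positive for 10 of 10 (median 0.82 on the log2 scale), and 0 passed edgeR (7 at an unadjusted p under 0.05). The part of fat cells, fibroblasts and pericytes in the values of Pparg and Lpl was not tested.

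For Plin2 and Soat1, which serve lipid storage, the 95% intervals included 0. Plin2, which coats lipid droplets and ranked 390th to 643rd by FPKM, was at 306, 523 and 283 CPM in vehicle 1, 2 and 3. In treated 1, 2 and 3 it was at 350, 321 and 287 CPM, all between vehicle 3 and vehicle 2. Its log2 fold change was -0.22 ± 0.24 (95% interval -0.78 to 0.35; edgeR adjusted p = 0.686) and turned to 0.10 without vehicle 2, the 1 library that stood apart. A pseudogene, Gm12551, matches 13.7% of its transcript at 96.1% identity.

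Soat1, which makes the cholesteryl esters of foam cells, was the steadiest of the 10. It was at 137, 177 and 150 CPM in vehicle and 140, 146 and 150 CPM in treated libraries 1, 2 and 3. The log2 fold change was -0.09 ± 0.14 (edgeR adjusted p = 0.774), and the 95% interval, -0.42 to 0.23, is the narrowest of the 10. The sign of so small a value turned with library totals as scaling (0.09).

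The fatty acid carriers varied more between libraries of 1 group than between groups. Fabp4, the carrier of fat cells, capillary endothelium and macrophages, was at 10.4, 113 and 29.6 CPM in vehicle 1, 2 and 3. In treated 1, 2 and 3 it was at 58.2, 84.7 and 15.7 CPM. The range was 10.8-fold in vehicle and 5.40-fold in treated libraries, and the vehicle coefficient of variation of 107% was above that of 98.9% of tested genes. On the log2 scale the difference was 0.05 ± 0.85 (95% interval -1.91 to 2.01; edgeR adjusted p = 0.986), and it went from -0.47 without treated 2 to 1.38 without vehicle 2.

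Endothelial markers followed the order of Fabp4 in vehicle libraries and only in part across all 6. The 10 markers, all detected, summed to 37.9, 207 and 74.2 CPM in vehicle 1, 2 and 3 and to 206, 202 and 112 CPM in treated 1, 2 and 3. The lowest Fabp4 level and the lowest sum were both in vehicle 1 and the highest of both in vehicle 2. Pecam1, an adhesion molecule of endothelium, had 9.40, 48.1 and 13.6 CPM and then 44.0, 51.1 and 27.5 CPM in the same order. Elsewhere the orders differed: treated 3 had less Fabp4 (15.7 CPM) than vehicle 3 and a higher endothelial sum, and treated 1 had less Fabp4 (58.2 CPM) than treated 2 (84.7 CPM) and vehicle 2 with a sum close to both. Per unit of the sum, a ratio also chosen after the levels were seen, vehicle 1, 2 and 3 had 0.276, 0.546 and 0.399 of Fabp4, and treated 1, 2 and 3 had 0.282, 0.420 and 0.139. The ratio thus spread widely in both groups, which overlapped, and it too is given with no test. Their part in the Fabp4 values was not tested.

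Fabp5, the epidermal carrier that macrophages also make, was at 15.9, 43.7 and 23.8 CPM in vehicle 1, 2 and 3 and at 21.9, 29.0 and 19.1 CPM in treated 1, 2 and 3. Within each group its order over the libraries was that of Fabp4 in vehicle and TP-18 alike except that it spanned less, 2.75-fold and 1.52-fold. Its log2 fold change was -0.25 ± 0.36 (95% interval -1.08 to 0.58; edgeR adjusted p = 0.753), and 0.22 without vehicle 2. Its count is uncertain, since 5 processed pseudogenes match 336 to 409 bases of its transcript at 93.6 to 98.3% identity and the handling of reads that match several places is not given in the sources used here.

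Leaving out vehicle 2 moved the log2 fold change more than leaving out any other library for 5 of the 10 genes: Abcg1, Lpl, Plin2, Fabp4 and Fabp5. For Apoe the library with that place was vehicle 3, for Abca1 it was treated 2, and for Soat1, Nr1h3 and Pparg it was vehicle 1. Relative to vehicle 1 and 3 it was lower for Apoe, Abca1, Abcg1 and Nr1h3 and higher for Lpl, Plin2, Soat1, Fabp4 and Fabp5, 9 of the 10 genes. Only Pparg lay between the others. Without vehicle 2 the value for Fabp4 went from 0.05 to 1.38. The same step moved Apoe, Abca1, Abcg1, Lpl and Nr1h3 away from 0 and Pparg toward it, turned the sign of Plin2, Soat1 and Fabp5, and gave no gene of the 10 an adjusted p under 0.05. The summed neutrophil markers, 215 CPM in vehicle 2 against 15.1 and 65.8 CPM in vehicle 1 and 3, and the endothelial and macrophage sums given above also set this library apart from the others of its group. In the fibroblast and pericyte sum, at 1214, 900 and 748 CPM in vehicle 1, 2 and 3, it lay between the others. Treated 1, 2 and 3 had neutrophil sums of 37.5, 119 and 26.2 CPM, the highest again in treated 2. That library was also near vehicle 2 in the macrophage sum (6217 and 6154 CPM) and the endothelial sum (202 and 207 CPM), the latter with treated 1 (206 CPM).

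**Figure D4:**
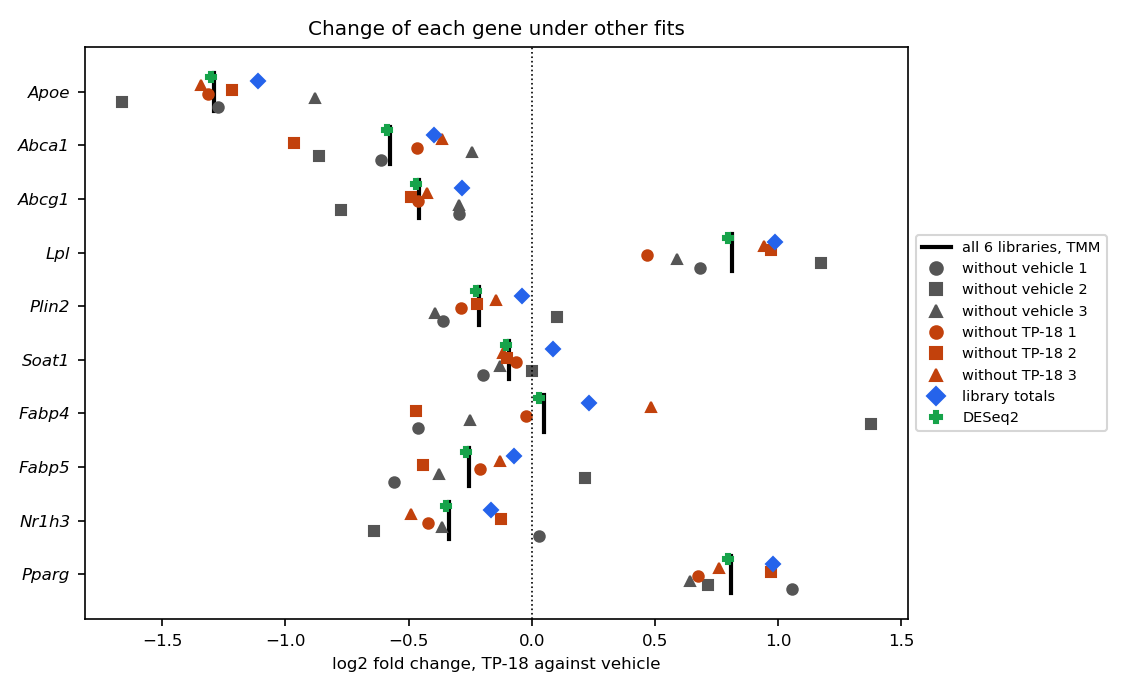
Log2 fold change of each gene, TP-18 against vehicle, with all 6 libraries (bars), with each library left out in turn (grey and orange markers), with library totals as scaling and with DESeq2. Apoe ranges from -1.66 to -0.88 with a library left out, and Fabp4 from -0.47 to 1.38.

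By FPKM, which allows levels of different genes to be set side by side, the vehicle means ran from Apoe (3014 ± 1585, SD, n = 3) through Plin2 (129 ± 45.4), Abca1 (68.7 ± 27.9), Fabp4 (54.9 ± 58.7), Soat1 (30.4 ± 3.78), Fabp5 (27.3 ± 13.9), Abcg1 (15.4 ± 6.34), Nr1h3 (2.88 ± 1.38) and Lpl (2.37 ± 0.953) to Pparg (0.933 ± 0.303). Apoe stood apart from all others. Abca1 and Fabp4 differed by less than their SD, as did Soat1 and Fabp5 and as did Nr1h3 and Lpl. In treated libraries the order was Apoe (1395 ± 131), Plin2 (125 ± 11.6), Fabp4 (64.5 ± 42.6), Abca1 (52.2 ± 21.8), Soat1 (32.2 ± 1.34), Fabp5 (26.0 ± 5.73), Abcg1 (12.7 ± 0.551), Lpl (4.70 ± 1.69), Nr1h3 (2.56 ± 0.709) and Pparg (1.84 ± 0.390). Lpl thus stood ahead of Nr1h3 in treated libraries and behind it in vehicle libraries, a change of order that was not tested.

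Other genes of the pathway were taken from 10 lists that hold none of the 10 genes, and none of their members passed edgeR (0 in each list, against 0.110% of all tested genes). The list of genes induced by liver X receptors or sterols also holds receptors and cofactors such as Nr1h2, Rxra and Ncor1. It had 10 of 17 tested members positive, with a median log2 fold change of 0.06, and 0 higher and 1 lower at an unadjusted p under 0.05. That 1 was Smpdl3a, a phosphodiesterase induced by liver X receptors, at 54.9, 93.4 and 158 CPM in vehicle and 37.5, 51.3 and 41.9 CPM in treated libraries (log2 fold change -1.23 ± 0.35; edgeR adjusted p = 0.204). Its groups were apart in CPM, as in the 11.7% of tested genes lower in every treated library, but not in FPKM. Pltp, the phospholipid transfer protein, had 186 ± 97.3 and 140 ± 39.4 CPM, and Arl4c, a small GTPase, had 245 ± 61.8 and 171 ± 52.3 CPM.

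The list of uptake receptors also holds genes that are not such receptors, among them Npc1, Npc2, Lipa and Lrpap1. Of its tested members 9 of 17 were positive (median 0.16), with 2 higher and 2 lower (Olr1 and Npc2) at an unadjusted p under 0.05. Olr1, a receptor of oxidised lipoprotein, had 12.4, 28.4 and 48.3 CPM in vehicle and 6.52, 13.6 and 6.83 CPM in treated libraries, with overlap (log2 fold change -1.72 ± 0.50; edgeR adjusted p = 0.208). Vldlr, which binds Apoe-rich particles, had 74.4 ± 11.4 and 113 ± 23.7 CPM (0.60 ± 0.19; edgeR adjusted p = 0.226), higher in every treated library, as in 11.6% of tested genes in CPM. Lrp1, a large receptor for Apoe, was at 2446 CPM in vehicle 1, 889 CPM in vehicle 2 and 2586 CPM in vehicle 3 and at 2228 to 2383 CPM in treated libraries, so that vehicle 2 alone was low. Npc2, which hands cholesterol out of lysosomes, had 893 ± 81.4 and 686 ± 42.2 CPM (-0.38 ± 0.13; edgeR adjusted p = 0.243). In the list of sterol export and ester hydrolysis 8 of 18 were positive (median -0.08), with 0 higher and 1 lower at an unadjusted p under 0.05. That 1 was Abca9, a transporter of the ABCA family, with 25.3 ± 19.0 CPM in vehicle and 9.40 ± 3.51 CPM in treated libraries (log2 fold change -1.43 ± 0.55; edgeR adjusted p = 0.270). The abundant member Tspo, a sterol-binding protein of mitochondria, had 210 ± 18.7 and 195 ± 20.4 CPM.

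The list of genes that PPAR receptors induce or that burn fatty acids also holds the receptor gene Ppard, Ppargc1a and Ppargc1b. Of its tested members 8 of 17 were positive with a median of -0.00425, and 1 was higher and 1 lower at an unadjusted p under 0.05. Cpt1a, the enzyme that commits fatty acids to mitochondria, was at 71.2, 66.9 and 72.4 CPM in vehicle and 104, 94.2 and 122 CPM in treated libraries. Every TP-18 library was higher in CPM, as in 11.6% of tested genes. The log2 fold change was 0.61 ± 0.14, with an edgeR adjusted p = 0.150. Ppard, the sister receptor of Pparg and the 1 that was lower, had 50.3 ± 4.72 and 34.8 ± 3.83 CPM (-0.53 ± 0.14; edgeR adjusted p = 0.193). Its groups were also without overlap, as in the 11.7% of tested genes lower in every treated library in CPM. Ucp2, a mitochondrial carrier, was the most abundant of the list at 480 ± 92.6 and 440 ± 80.3 CPM.

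Of lipid droplet and triglyceride genes 7 of 19 tested were positive (median -0.07), with 1 higher and 3 lower at an unadjusted p under 0.05. The 1 higher was Mgll, with a log2 fold change of 1.64 (edgeR adjusted p = 0.254). Hilpda, a droplet protein that blocks lipolysis, had 138 ± 78.7 and 87.5 ± 43.9 CPM. Acsl4, which activates polyunsaturated fatty acids, had 162 ± 13.8 and 122 ± 7.40 CPM (-0.40 ± 0.13; edgeR adjusted p = 0.227). It was lower in every treated library, as in 11.7% of tested genes in CPM. Fatty acid synthesis and desaturation had 10 of 13 positive (median 0.18; 0 higher and 1 lower at that p), with the desaturase Scd2 at 411 ± 10.9 and 563 ± 147 CPM and the elongase Elovl5 at 99.2 ± 17.0 and 69.4 ± 4.30 CPM. Cholesterol synthesis had 11 of 23 positive (median -0.04; 0 higher and 1 lower at that p). Its early enzyme Hmgcs1 had 194 ± 19.4 and 153 ± 46.9 CPM, and Sqle, which makes squalene epoxide, had 102 ± 6.85 and 73.5 ± 7.66 CPM (-0.47 ± 0.13; edgeR adjusted p = 0.204).

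Genes of lipid-associated macrophages, a state described in obesity and tumours, had 13 of 18 negative, a median of -0.26, and 0 higher and 4 lower at an unadjusted p under 0.05. Scaling by library totals raised the median of all tested genes by 0.18, and gave this list -0.08. The secreted proteins Spp1 (2789 ± 1017 and 3076 ± 540 CPM) and Lgals1 (1500 ± 366 and 1465 ± 224 CPM) overlapped between groups. Anxa1, a calcium-dependent lipid-binding protein, was at 1812, 1938 and 1551 CPM in vehicle and 1195, 1119 and 836 CPM in treated libraries (-0.75 ± 0.18; edgeR adjusted p = 0.152), and Cd63, a lysosomal tetraspanin, was at 828 ± 96.7 and 595 ± 5.64 CPM. Both were lower in every TP-18 library, as in 11.7% of tested genes in CPM. Among other lipid carriers 5 could be tested, 3 of them positive and 1 higher at that p, and Crabp1, a retinoic acid carrier, was the extreme at 0 to 0.369 CPM in vehicle and 1.19 to 3.06 CPM in treated libraries (edgeR adjusted p = 0.158). Of the other apolipoproteins 9 could be tested, 5 of them positive (median 0.06) and 2 higher at that p, led by the interferon-inducible Apol6 and Apol9b, at 2.21 ± 0.675 and 18.6 ± 1.90 CPM in treated libraries against 0.628 ± 0.271 and 8.35 ± 5.04 CPM in vehicle libraries.

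**Figure D5:**
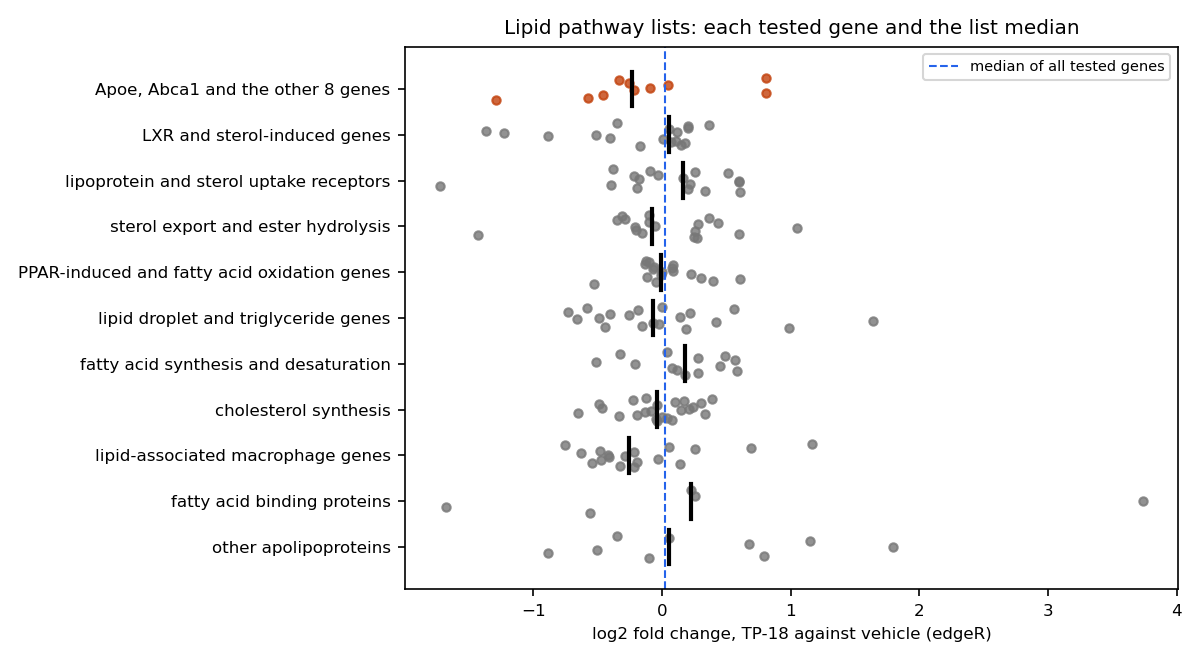
Log2 fold change (edgeR, TP-18 against vehicle) of each tested gene in the 10 pathway lists and in the Apoe set (orange), with each list's median (bar) and the median of all tested genes (dashed line, 0.02). List medians lie between -0.26 and 0.23.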

How the data were processed

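The authors deposited raw counts per gene and, in a second table, FPKM values for 3 vehicle and 3 TP-18 libraries. The submitters' processing notes list GRCm38 and the tools HTSeq, HISAT2 and fastp. Versions, annotation, strand use and the handling of reads with several matches are not given in the sources used here. Each deposited FPKM equals count over library total and 1 length per gene for all 17191 genes (tolerance 1e-06).

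Counts were tested with edgeR 4.0.16 (R 4.3.3): filterByExpr (minimum count 10, minimum total 15; 12721 genes), TMM scaling, quasi-likelihood test without covariates, Benjamini-Hochberg adjustment over all tested genes, threshold 0.05. The test was first run on simulated data. CPM use TMM-scaled totals. SE is the absolute log2 fold change over the square root of F, and intervals use the fit's degrees of freedom. Alternatives were RLE or library-total scaling, DESeq2 1.42.0, limma 3.58.1 on voom weights or on log2(FPKM + pseudocount) with 1 or 0.1, no filter or at least 1 CPM in 3 libraries, the replicate number as a block, and leaving out each library. Libraries of a group differed by more than sampling noise, so none was counted as a copy.

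The 10 genes, 10 pathway lists and 12 marker lists were chosen with earlier results of these data known. Beside the 10 genes, those named were, per pathway list, the most abundant by FPKM and those of smallest p, 2 each (a few are left out), and any past the threshold; per marker list, the 2 most abundant; Itgam, Adgre1 and Mrc1; and the 6 genes most correlated with Apoe. Others were named after their values were seen. Gene positions and exon overlaps are from GENCODE M21, and near copies (at least 90% identity over 200 bases) from blastn 2.17.0 on its transcripts.

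Of the marker lists not described above, none had a member past the threshold. Median log2 fold changes were 0.00226 (monocyte, 8 tested), 0.13 (neutrophil, 5), -0.82 (dendritic cell, 4), -0.05 (T and NK cell, 5) and 1.35 (B cell, 2). They were -0.04 (skin, 2), -0.19 (CT26 and epithelium, 5) and -1.35 (skeletal muscle, 6), and 0.60 for endothelial cells (10), described above by level. B cell markers were near the floor, with sums of 1.38 to 3.93 CPM in vehicle and 2.71 to 8.79 CPM in treated libraries.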

Additional observations from a re-analysis of the deposited data

How the results depend on the processing

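The edgeR count of genes called was 14, against 4 with library totals, 27 with no filter, 2 with limma on log2(FPKM + 1), 2 with log2(FPKM + 0.1), 566 with DESeq2, and 0 to 8 with each library left out in turn (unadjusted counts 1169 to 2488). Among the 10 genes the count was 0 except for 1, Apoe, with DESeq2 (-1.30), and 0 to 0 with a library left out. Log2 fold changes turned sign for Plin2 (0.0131 and 0.0135 in the FPKM fits with pseudocounts 1 and 0.1), Soat1 (0.0863 with library totals, 0.0894 and 0.0922 in those FPKM fits) and Fabp5 (0.0222 and 0.0262). With a library left out, values ran from -0.39 to 0.10 for Plin2, -0.20 to 0.00139 for Soat1, -0.47 to 1.38 for Fabp4, -0.56 to 0.22 for Fabp5 and -0.64 to 0.0291 for Nr1h3. The cause was not tested. Apoe, Abca1 and Abcg1 stayed negative and Lpl and Pparg positive in all 15 alternatives. A replicate block called 3 genes, 0 of the 10 among them. Same-numbered deviations correlated at 0.138, 0.385 and -0.150, and other-numbered ones from -0.574 to 0.479. Of 3 vehicle libraries, 1 correlated best with its own number. With 3 libraries a group, these values cannot settle whether the numbers pair the libraries.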
